A study of Mus musculus with 6 samples.

Results

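The 46 genes described here encode the T cell receptor complex of regulatory T cells (Treg cells), the proteins that carry its signal into the cell, the proteins that restrain it, and the costimulatory receptors that act beside it. They are a fixed list of named genes, grouped here by what their products do. All 46 were found among the 24453 gene symbols of the deposited table, each taken as the transcript with the highest mean level, and all 46 were among the 13621 genes tested. The miR-27 Tg group comprises 3 RNA libraries of sorted CD4+Foxp3+ Treg cells from healthy female C57BL/6 mice with a miR-27 transgene, which the design text describes as miR-27a overexpressed specifically in Treg cells. The WT group comprises 3 libraries of the same sorted population, strain, sex and health state. Its genotype label reads WT Tg, and the labels do not say whether the WT mice carry the Cre or the transgene cassette. The series title names a heterozygous Foxp3cre as the driver. Whether the sort kept to Cre-positive cells, the age of the mice, and whether each library came from its own mouse are not stated either, so the p-values speak of differences among libraries, which may be technical in origin.

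When a T cell receptor meets its antigen, the kinase Lck phosphorylates the CD3 and zeta chains, the kinase Zap70 docks there, and the adaptors Lat and Lcp2 gather the phospholipase Plcg1. The second messengers made by Plcg1 open the calcium, calcineurin and NFAT route, the Rasgrp1 and Ras route, and the Prkcq, Bcl10, Malt1 and NF-kB route, while CD28 and ICOS add costimulatory signals. Treg cells depend on receptor signals and on CD28 for their numbers and suppressive function. A microRNA such as miR-27 pairs through its seed, bases 2 to 8, with sites in 3′ UTRs and lowers the stability or translation of the mRNA.

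Levels are given as RPKM, reads per kilobase of transcript per 10000000 counted reads. Counted reads, summed over all transcripts, came to 34400000 to 38100000 in miR-27 Tg and 37700000 to 42100000 in WT. A read shared by several transcripts enters these sums more than once, so they are above the number of separate reads. Each of the 46 genes had at least 595 reads in every library. The row of Mir27a, the hairpin gene of the transgene's microRNA, had 8919, 7448 and 7898 RPKM in the miR-27 Tg libraries, against 24.9, 38.4 and 24.7 RPKM in the WT libraries (log2 fold change 8.09, SE 0.17, limma adjusted p = 6.05e-07). The mature microRNA itself was not measured by this table. Foxp3 was present in all 6 libraries, at 774 to 955 RPKM in miR-27 Tg and 662 to 831 RPKM in WT. The 10 Treg markers summed to 13100 to 13900 RPKM in miR-27 Tg and 15240 to 16190 RPKM in WT, without overlap. By fold change 7 of the 10 lay below 0 and 3 above (Foxp3, Il2ra and Cd4), and 0 passed. The sum weighs abundant genes most, and Ctla4 alone averaged 2335 RPKM in miR-27 Tg and 3436 RPKM in WT. The 16 myeloid markers summed to 1655 to 3350 RPKM in miR-27 Tg and 1692 to 2177 RPKM in WT. Ctss weighs most in these sums, at a mean of 1365 RPKM in miR-27 Tg and 1481 RPKM in WT. Of the 15 myeloid markers tested, it alone had a fold change below 0. The other 14 had a higher mean in miR-27 Tg, and 5 of them lay wholly above WT, as 6.84% of all genes did. At an unadjusted p under 0.05 by limma 10 of the 15 were higher, against 4.59% of all genes. After adjustment 1, Itgam, passed the test. Another annotated gene overlaps 73.7% of the exon length of Itgam, so its value is uncertain. Cd14 was listed at 0 in miR-27 Tg replicate 1. The 12 B cell markers summed to 1013 to 3533 RPKM in miR-27 Tg and 746 to 1661 RPKM in WT, with 0 of 11 tested past the threshold. The 10 CD8 T and NK cell markers summed to 195 to 340.2 RPKM in miR-27 Tg and 226 to 289 RPKM in WT. Nkg7 and Xcl1 of that list passed as lower in miR-27 Tg, while 5 of its 9 tested genes had fold changes above 0 and 4 below. Klrd1 was at 1.41 and Cd8b1 at 0.72 on the log2 scale, neither past the threshold. Ncr1 was listed at 0 in WT replicate 1. The 6 erythroid markers summed to 8.31 to 49.8 RPKM in miR-27 Tg and 15.1 to 67.9 RPKM in WT. The part of these other cells in the values below was not tested, and in bulk RNA fewer cells of a type and less RNA per cell cannot be told apart.

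The seed match was looked up in the 3′ UTRs of all 46 genes, because the groups differ by this microRNA. The mature miR-27a-3p, in RefSeq on GRCm38.p6 at chr8:84208727-84208747 on the plus strand, is shown first with its seed in capitals. The lines after it are 3′ UTR stretches of 5 of the 7 genes that hold the match ACTGTGA, in capitals, within the longest annotated transcript (GENCODE, GRCm38).
miR-27a-3p: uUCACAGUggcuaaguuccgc
Cd28 (chr1:60770769-60770797, plus strand): ctagtcatgatACTGTGAacaaaaagggt
Ubash3b (chr9:41014123-41014151, minus strand): tggccggatgaACTGTGAagtccccaagc
Ubash3a (chr17:31246121-31246149, plus strand): gctgtcttcccACTGTGAataattggaac
Fyn (chr10:39564760-39564788, plus strand): tgctccagcgaACTGTGAttcgttcttga
Cd5 (chr19:10718258-10718286, minus strand): ctctaggagccACTGTGAccagtggggtt

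In Cd28, Ubash3b and Ubash3a the match is followed by an A, the base most often found opposite the first base of a microRNA at working sites. The stretch of Ubash3a lies outside the transcript for which its level was deposited. Sos1 held 3 matches, and Nfatc1 held the match as well. A match was thus present in 7 of 46 genes (15.2%), against 2033 of the 11826 tested genes with an annotated 3′ UTR (17.2%). The median 3′ UTR of the 46 genes was 1580 bases, against 1140 bases over those 11826 genes. The log2 fold change (miR-27 Tg over WT, on the log2(RPKM + 1) scale used throughout) had a median of -0.15 over the 7 genes with a match, 5 of them below 0, and -0.01 over the 39 without. Over all tested genes the medians were -0.06 with a match and 0.00 without. These are descriptions of letters in a sequence and of small groups of genes, and no site was tested for its effect.

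None of the 46 genes passed the test between miR-27 Tg and WT (0 higher and 0 lower by limma, adjusted p under 0.05 over 13621 genes), where 1.03% of all genes tested passed, 0.374% as higher and 0.653% as lower. An unadjusted p under 0.05 was found for 6 of 46 genes, which is no more than the share of all genes (13.0%). Those 6 are Dok2 and Prkcq, with higher levels in miR-27 Tg (4.59% of all genes), and Icos, Ptpn22, Cd28 and Ubash3b, with lower levels (8.43% of all genes). In 12 of 46 genes (26.1%) the 3 miR-27 Tg libraries lay wholly to 1 side of the 3 WT libraries, against 18.5% of all genes tested. Of these 12, Cd4, Cd247, Dok2, Prkcq and Rasgrp1 lay above WT, as 6.84% of all genes did. Icos, Ptpn22, Cd28, Ubash3b, Malt1, Zap70 and Fyn lay below, as 11.6% of all genes did.

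The differences were small in size. The log2 fold changes ran from -0.47 for Icos to 0.28 for Dok2, with a median of -0.03 over the 46 genes and -0.01 over all genes tested (0.006 and 0.02 under median-ratio scaling). The fold change was below 0 in 26 genes and above 0 in 20. An absolute log2 fold change under 0.25 was found in 38 of the 46 genes, against 71.3% of all genes tested. The median absolute log2 fold change was no smaller, at 0.138 over the 46 genes and 0.133 over all genes tested. The 95% interval of the difference lay within 0.5 of 0 on the log2 scale for 36 genes, and within 1 of 0 for all 46. The lowest bound was -0.85 for Nfatc1, and the highest was 0.57 for Ppp3ca, the catalytic calcineurin subunit. A change by 2-fold or more thus lay outside the 95% interval of each gene.

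The genes as a group had high levels. Their median level was 646 RPKM, against 64.1 RPKM over all genes tested, and 45 of the 46 lay above that second value. Mean levels were above 1000 RPKM for 15 genes and below 100 RPKM for 2, Ppp3ca and Sos1. The spread between libraries of a group was also narrow, with a median within-group SD of 0.13 on the log2 scale, against 0.18 over all genes tested. It was narrowest in Grap2 (0.027) and widest in Nfatc2 (0.39) and Nfatc1 (0.37).

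**Figure D1:**
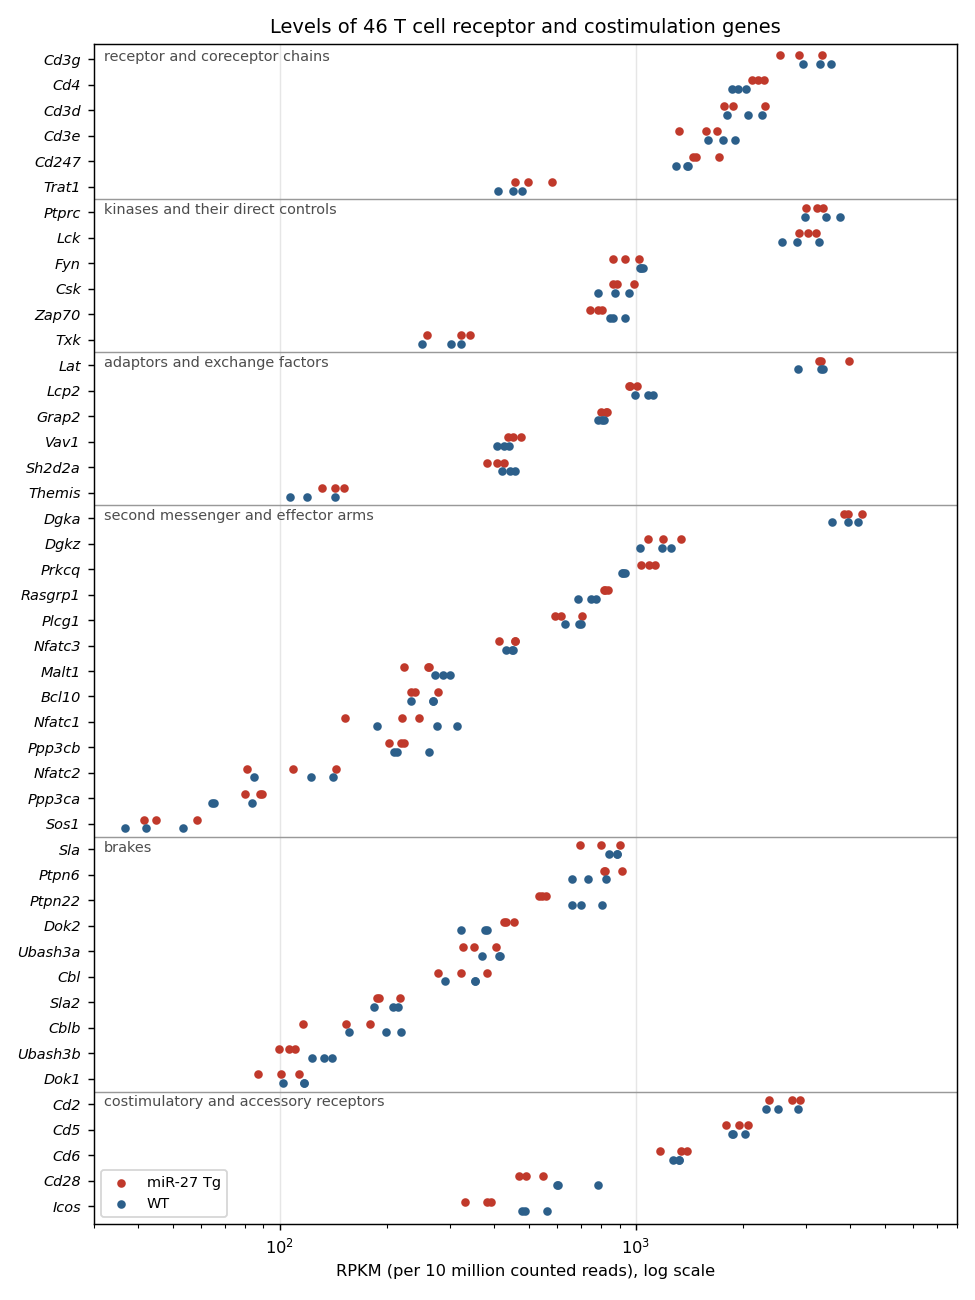
Level of each of the 46 genes in each library, in RPKM on a log scale, grouped by role and ordered by mean level, with miR-27 Tg libraries as red points above the blue points of the WT libraries. The points of both groups lie close together from Dgka at the top of the range to Sos1 at the bottom, and they separate in 12 genes, Icos and Ptpn22 among them.

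Of the 6 receptor and coreceptor chains 0 passed, and 3 had fold changes above 0 and 3 below. Cd3e, the CD3 epsilon chain (chr9:44998743-45009590, mm10), had 1692, 1570 and 1320 RPKM in miR-27 Tg, against 1893, 1595 and 1758 RPKM in WT. The groups overlapped, and the log2 fold change was -0.20 (SE 0.12, adjusted p = 0.577). Cd3g, the CD3 gamma chain, had 2544, 2863 and 3327 RPKM in miR-27 Tg and 2947, 3530 and 3279 RPKM in WT (-0.16, SE 0.13, adjusted p = 0.675). Cd3d, the delta chain, averaged 1983 ± 279 RPKM in miR-27 Tg and 2041 ± 230 RPKM in WT (SD, n = 3 each). The 3 CD3 genes sit side by side on chromosome 9, and all 3 had a mean below WT with overlapping libraries.

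Cd247, which encodes the zeta chain that carries most of the receptor's phosphorylation motifs, differed in direction from the CD3 chains. It averaged 1545 ± 142 RPKM in miR-27 Tg and 1364 ± 59.7 RPKM in WT, with every miR-27 Tg library above every WT library (log2 fold change 0.18, adjusted p = 0.53). Over the 5 transcripts of Cd247 the log2 fold change ran from 0.08 to 0.18, so the transcript used was at the upper end. Cd4, the coreceptor that brings Lck to the receptor, had 2117, 2293 and 2210 RPKM in miR-27 Tg and 1864, 2034 and 1940 RPKM in WT. These groups did not overlap either (0.18, SE 0.09, adjusted p = 0.46). Trat1, an adaptor that associates with the receptor complex, had 496.5, 459 and 582 RPKM in miR-27 Tg and 411, 479 and 451 RPKM in WT, with overlap (0.19, adjusted p = 0.553). Summed over the 3 CD3 chains and zeta, the level was 7457, 7790 and 8655 RPKM in miR-27 Tg, against 7935, 8780 and 8500 RPKM in WT. Exons of neighbouring genes overlap 12.1% of the exon length of Cd247 and 9.2% of that of Cd3e, and reads there were counted for both.

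Among the kinases and their direct controls, 0 of 6 passed. Lck, the kinase that starts the cascade (chr4:129548344-129573641), had 2868, 3034 and 3207 RPKM in miR-27 Tg and 2579, 3278 and 2840 RPKM in WT. WT replicate 2 lay above all miR-27 Tg libraries, and the log2 fold change was 0.07 (SE 0.12, adjusted p = 0.869). Zap70, the kinase that docks on the phosphorylated chains (chr1:36778984-36782820), had 784, 803 and 742 RPKM in miR-27 Tg, against 865, 846 and 935 RPKM in WT. All miR-27 Tg libraries lay below all WT libraries, with a log2 fold change of -0.18 (SE 0.08, adjusted p = 0.417). These values are of the shortest of the 4 Zap70 transcripts (1335 bases, the longest 2275), over which the log2 fold change ran from -0.18 to -0.15. Fyn, a kinase related to Lck, averaged 939 ± 77.9 RPKM in miR-27 Tg and 1036 ± 8.11 RPKM in WT, without overlap (-0.15, adjusted p = 0.583).

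Ptprc, the phosphatase CD45 that keeps Lck active, had 2995, 3232 and 3358 RPKM in miR-27 Tg and 3409, 3751 and 2994 RPKM in WT (-0.08, adjusted p = 0.856). Csk, the kinase that shuts Lck off, averaged 912 ± 65.9 RPKM in miR-27 Tg and 871 ± 85.6 RPKM in WT. Txk, a Tec family kinase, averaged 308 ± 42.7 RPKM in miR-27 Tg and 293 ± 37.1 RPKM in WT. Both overlapped between the groups.

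The adaptors and exchange factors overlapped between miR-27 Tg and WT in all 6 genes, and 0 of 6 passed. Lat, the membrane scaffold on which the signal branches and the second most abundant of the 46 genes, had 3274, 3308 and 3958 RPKM in miR-27 Tg, against 2847, 3344 and 3306 RPKM in WT. The highest library was miR-27 Tg replicate 3, and the log2 fold change was 0.15 (SE 0.12, adjusted p = 0.688). Its partner Lcp2 averaged 976 ± 29.4 RPKM in miR-27 Tg and 1064 ± 62.7 RPKM in WT (-0.12, adjusted p = 0.626). Grap2, the adaptor that links Lat to Lcp2, averaged 817 ± 16.6 RPKM in miR-27 Tg and 799 ± 13.1 RPKM in WT, and its 95% interval ran from -0.14 to 0.21.

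Vav1, an exchange factor that links the receptor to the actin cytoskeleton, averaged 455 ± 18.2 RPKM in miR-27 Tg and 425 ± 17.8 RPKM in WT (0.10, adjusted p = 0.682). Themis, a protein known for its part in thymocyte selection, had 143, 132 and 152 RPKM in miR-27 Tg, against 143, 119 and 107 RPKM in WT (0.21, SE 0.12, adjusted p = 0.557). Sh2d2a, the adaptor TSAd that binds Lck, averaged 405 ± 23.0 RPKM in miR-27 Tg and 441 ± 18.9 RPKM in WT (-0.12, adjusted p = 0.625).

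The second messenger and effector genes, 13 in number, likewise gave 0 calls. Dgka, a diacylglycerol kinase that removes the lipid messenger, was the most abundant of the 46 genes, with 3838, 3930 and 4313 RPKM in miR-27 Tg and 3558, 4204 and 3937 RPKM in WT (0.05, SE 0.11, adjusted p = 0.921). Its relative Dgkz averaged 1206 ± 128 RPKM in miR-27 Tg and 1155 ± 114 RPKM in WT. Plcg1, the phospholipase that makes the messengers, averaged 639 ± 60.1 RPKM in miR-27 Tg and 674 ± 37.9 RPKM in WT (-0.08, adjusted p = 0.815). None of these 3 separated the groups.

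Prkcq and Rasgrp1, which both respond to diacylglycerol, separated in their raw values, as 18.5% of all genes tested did, and neither passed. Prkcq, the kinase PKC-theta (chr2:11172382-11301226), had 1089, 1032 and 1133 RPKM in miR-27 Tg, against 912, 931 and 923 RPKM in WT. The WT libraries were nearly equal and all lay below the miR-27 Tg libraries, yet the log2 fold change of 0.23 (SE 0.08) had an adjusted p of 0.264. Rasgrp1, which loads Ras with GTP in response to the same lipid, averaged 823 ± 12.1 RPKM in miR-27 Tg and 736 ± 44.7 RPKM in WT, without overlap (0.16, adjusted p = 0.476). Sos1, the other Ras activator of the list, overlapped at 48.3 ± 8.98 RPKM in miR-27 Tg and 44.2 ± 8.58 RPKM in WT (0.13, adjusted p = 0.847).

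Malt1, the protease of the complex that leads from Prkcq to NF-kB, had 223, 262 and 260.2 RPKM in miR-27 Tg and 301, 287 and 273 RPKM in WT. All miR-27 Tg libraries lay below all WT libraries (-0.21, SE 0.10, adjusted p = 0.415). Its partner Bcl10 overlapped, at 251 ± 24.4 RPKM in miR-27 Tg and 257 ± 20.1 RPKM in WT (-0.04, adjusted p = 0.934).

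On the calcium side, Ppp3ca had 88.0, 80.0 and 89.2 RPKM in miR-27 Tg, against 83.3, 64.5 and 65.3 RPKM in WT. WT replicate 1 lay among the miR-27 Tg libraries, and the log2 fold change was 0.28 (SE 0.13, adjusted p = 0.417). Ppp3cb, the other catalytic subunit of calcineurin, averaged 215 ± 11 RPKM in miR-27 Tg and 228 ± 29.0 RPKM in WT (-0.08, adjusted p = 0.84). Nfatc1, an NFAT transcription factor, had 247, 219.9 and 153 RPKM in miR-27 Tg and 314, 187 and 277 RPKM in WT. The libraries of each group differed by more than the group means did, and the log2 fold change of -0.32 had an SE of 0.23 (adjusted p = 0.632). It was -0.12 without miR-27 Tg replicate 3, -0.17 without WT replicate 1 and -0.54 without WT replicate 2. Over its 6 transcripts the log2 fold change ran from -0.43 to -0.32. Nfatc2 averaged 111 ± 31.6 RPKM in miR-27 Tg and 116 ± 28.6 RPKM in WT (-0.07, adjusted p = 0.949). Nfatc3 averaged 443 ± 26.9 RPKM in miR-27 Tg and 444 ± 10.7 RPKM in WT, the smallest fold change of the 46 genes in this fit (-0.01, 95% interval -0.20 to 0.18).

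**Figure D2:**
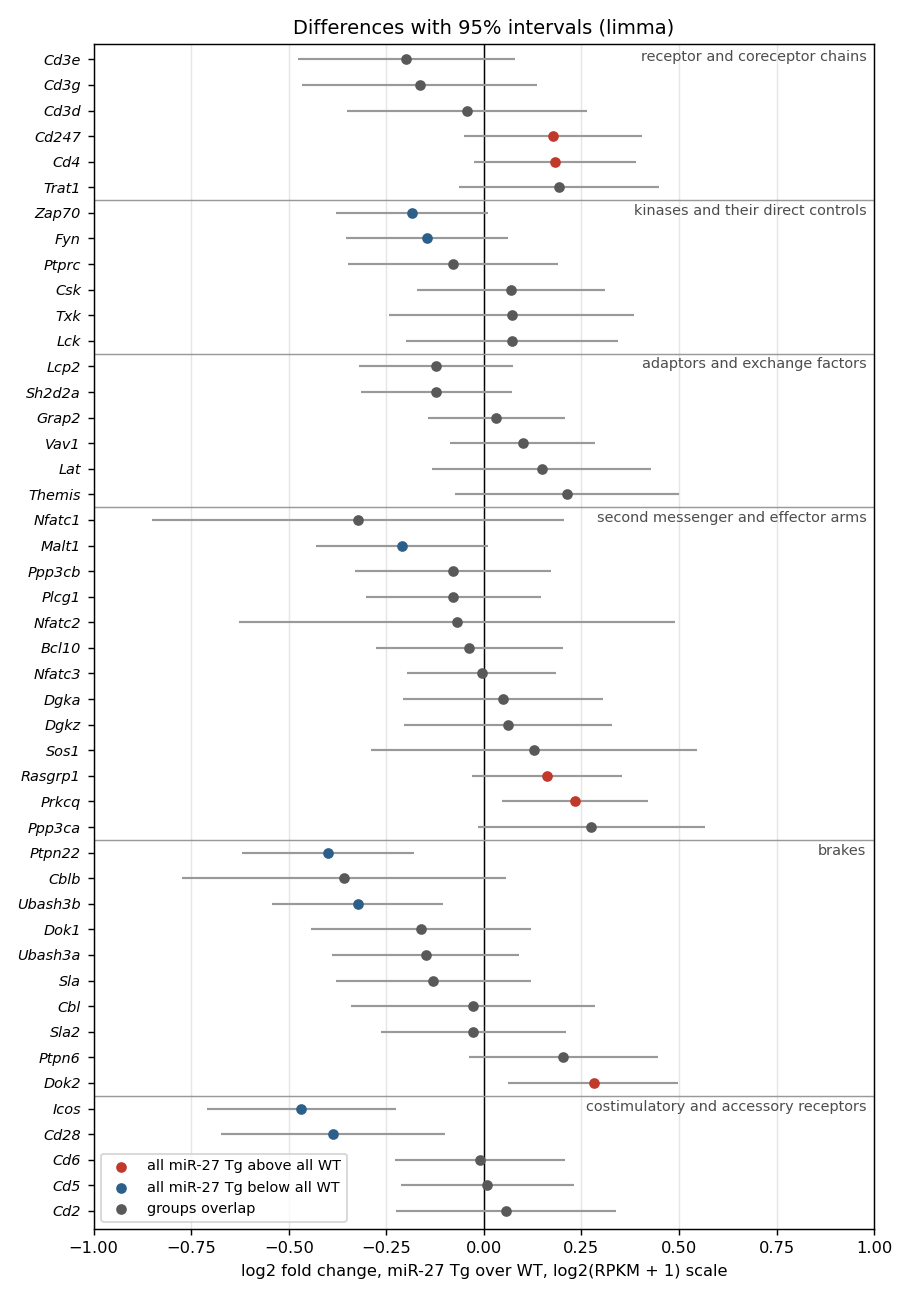
Log2 fold change of each gene (miR-27 Tg over WT, log2(RPKM + 1) scale) with its 95% interval from limma, grouped by role. Red and blue points mark genes in which all miR-27 Tg libraries lay above or below all WT libraries. The fold changes run from -0.47 for Icos to 0.28 for Dok2, and 0 of the 46 genes passed the adjusted threshold.

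Among the 10 brakes of the pathway 8 had fold changes below 0, with a median of -0.14, against 52.9% of all genes below 0 and a median of -0.01. None of the 10 passed, so this is a count of directions and not of changed genes, and under median-ratio scaling it was 6 of 10, with a median of -0.11. The count also depends on how roles were assigned. Csk, Dgka, Dgkz and Cd5 restrain the signal too but stand in other roles here, with log2 fold changes of 0.07, 0.05, 0.06 and 0.01. Ptpn22, the phosphatase that dephosphorylates Lck and Zap70 (chr3:103860277-103912252), had 533, 546 and 560.5 RPKM in miR-27 Tg, against 704, 805 and 663 RPKM in WT. The miR-27 Tg libraries were tightly grouped below all WT libraries, with a log2 fold change of -0.40 (SE 0.10, adjusted p = 0.116). Ubash3b, the phosphatase Sts-1 that acts on Zap70 (chr9:41013641-41157494), had 106, 111 and 99.5 RPKM in miR-27 Tg and 123, 140.4 and 133 RPKM in WT. These groups did not overlap either (-0.32, SE 0.10, adjusted p = 0.191), and the gene carries the seed match printed above.

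Cblb, an E3 ubiquitin ligase that sets the need for CD28 costimulation (chr16:52031549-52208046), had 179, 154 and 116 RPKM in miR-27 Tg and 219, 157 and 198 RPKM in WT. The groups overlapped, and the log2 fold change was -0.36 (SE 0.18, adjusted p = 0.464). Leaving out miR-27 Tg replicate 3 brought it to -0.19. Its relative Cbl averaged 328 ± 52.3 RPKM in miR-27 Tg and 332 ± 35.9 RPKM in WT (-0.03, adjusted p = 0.964). Ubash3a averaged 361 ± 39.5 RPKM in miR-27 Tg and 399 ± 25.2 RPKM in WT, with overlap and a seed match (-0.15, adjusted p = 0.628).

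In the other direction, Dok2, an adaptor that recruits a Ras inhibitor (chr14:70774381-70778494), had 432, 426 and 455 RPKM in miR-27 Tg, against 322, 383 and 378 RPKM in WT. All miR-27 Tg libraries lay above all WT libraries (0.28, SE 0.09, adjusted p = 0.247). Its relative Dok1 averaged 100.4 ± 13.2 RPKM in miR-27 Tg and 112 ± 8.77 RPKM in WT (-0.16, adjusted p = 0.654). Ptpn6, the phosphatase SHP-1, had 819, 815 and 912.5 RPKM in miR-27 Tg and 662, 822 and 734 RPKM in WT, overlapping through WT replicate 2 (0.20, SE 0.10, adjusted p = 0.483). Dok2 and Ptpn6 are also made by myeloid cells, whose 16 markers had mean log2 levels of 4.67, 5.82 and 5.39 in miR-27 Tg and 4.05, 3.78 and 4.58 in WT. Within miR-27 Tg, Dok2 and Ptpn6 were both lowest in replicate 2, where these markers were highest. Within WT, both genes were highest in replicate 2, where these markers were lowest. Some of these differences between libraries were small. Other genes of the pathway were not examined for expression in myeloid cells. The part of myeloid cells in the values of Dok2 and Ptpn6 was not tested. Sla and Sla2, the SLAP adaptors that lower surface receptor, overlapped between the groups. Sla averaged 799 ± 104 RPKM in miR-27 Tg and 870 ± 24.8 RPKM in WT, and Sla2 averaged 198 ± 17.3 RPKM in miR-27 Tg and 202 ± 16.4 RPKM in WT.

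Of the 5 costimulatory and accessory receptors 0 passed. Icos and Cd28 lay wholly below WT, as 11.6% of all genes tested did, and Cd2, Cd5 and Cd6 overlapped. Icos, the inducible costimulator (chr1:60977914-61000321), had 330.4, 382 and 393 RPKM in miR-27 Tg, against 478, 562 and 489 RPKM in WT. Every miR-27 Tg library lay below every WT library, and the means were 368 ± 33.3 and 509.8 ± 45.9 RPKM (SD, n = 3 each). The log2 fold change of -0.47 (SE 0.11) had an adjusted p of 0.0977, the lowest of the 46 genes, and the 3′ UTR of its longest transcript held no seed match. Cd28, the main costimulatory receptor of T cells (chr1:60746388-60773359), had 548, 471 and 490.4 RPKM in miR-27 Tg, against 782, 599 and 604 RPKM in WT. The groups did not overlap, and WT replicate 1 was the highest library (-0.39, SE 0.12, adjusted p = 0.23).

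Cd2, an adhesion receptor, had 2365, 2742 and 2891 RPKM in miR-27 Tg and 2326, 2858 and 2506 RPKM in WT (0.06, SE 0.12, adjusted p = 0.912). Cd5, an inhibitory receptor whose level follows the strength of receptor signals, averaged 1934 ± 135 RPKM in miR-27 Tg and 1920 ± 88.1 RPKM in WT (0.01, 95% interval -0.21 to 0.23). Cd6, its neighbour and relative, averaged 1299 ± 113 RPKM in miR-27 Tg and 1305 ± 32.4 RPKM in WT (-0.01, adjusted p = 0.984). Cd5 carries a seed match and Cd6 does not.

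**Figure D3:**
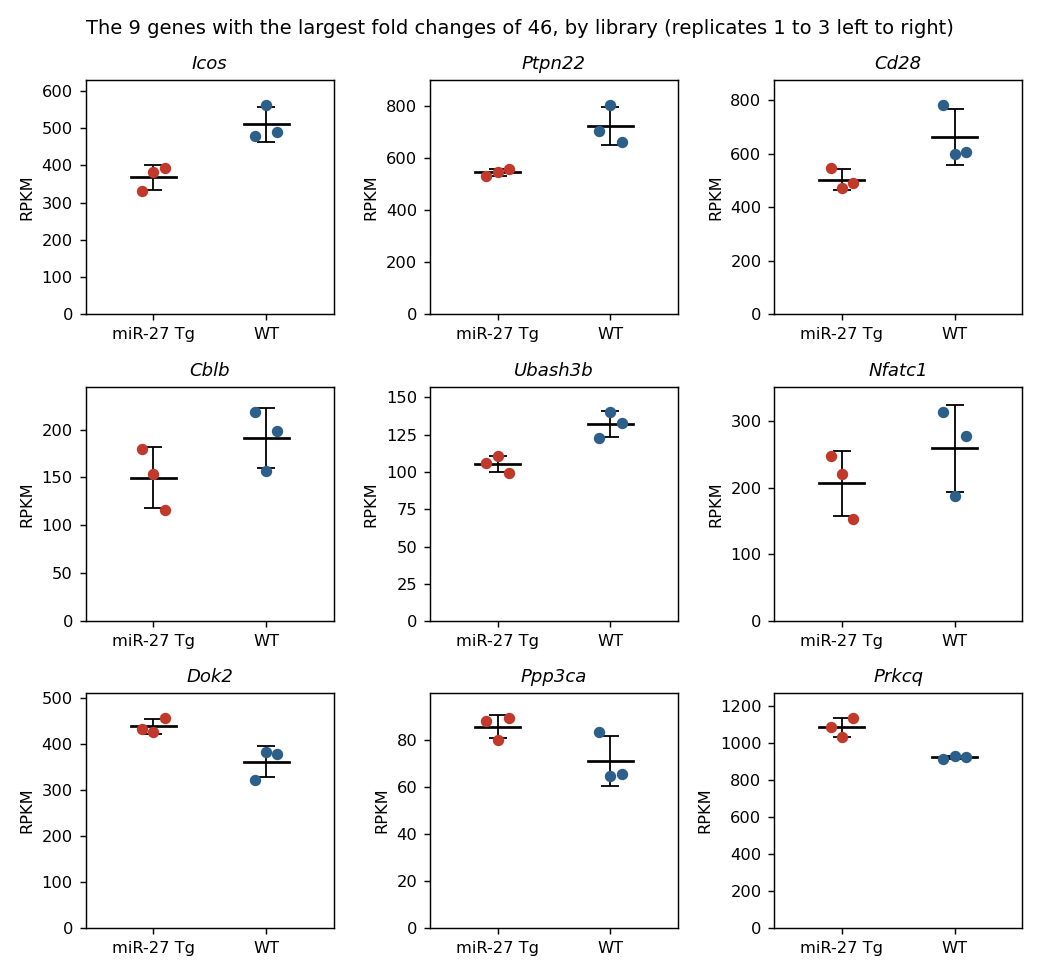
RPKM by library for the 9 genes with the largest absolute fold changes, with the mean (bar) and SD (whiskers) of each group, miR-27 Tg in red at left and WT in blue at right, each axis starting at 0. Icos, Ptpn22, Cd28 and Ubash3b lie lower and Dok2 and Prkcq lie higher in all 3 miR-27 Tg libraries, while Cblb, Nfatc1 and Ppp3ca overlap.

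Cd28 and Icos lie within 500 kb of each other on chromosome 1, with Ctla4, the inhibitory receptor that competes with CD28 for its ligands, between them (chr1:60909025-60915832). This stretch was picked after its values were seen. Ctla4 had 2107, 2322 and 2575 RPKM in miR-27 Tg, against 3771, 3413 and 3125 RPKM in WT, without overlap (-0.56, SE 0.12, adjusted p = 0.0868). Of the 5 other tested genes within 500 kb, Ctla4 included, all 5 had fold changes below 0 and none passed. Raph1 was at -0.46, Abi2 at -0.24, Nbeal1 at -0.19 and Cyp20a1 at -0.19, all with adjusted p of 0.43 or more. Around the CD3 genes 7 of 19 other tested genes had fold changes below 0, around Cd5 and Cd6 8 of 19, and around Ptpn6 and Cd4 20 of 43. The lower means of Cd28, Icos and Ctla4, none past the threshold, stand beside the lower summed Treg markers of miR-27 Tg, of which Ctla4 is a part. Foxp3, Il2ra and Cd4 of the same markers had fold changes above 0.

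Within a group, the 46 genes deviated from their group mean in a way that followed transcript length. Long genes were above the group mean and short genes below it in miR-27 Tg replicate 1 and WT replicate 1, with the reverse in miR-27 Tg replicate 3 and WT replicate 2. The deviations of a gene cancel out within a group, so an upward slope in 1 library has to be offset by the others. The correlation of the deviation with log2 length over the 46 genes was 0.52, 0.08 and -0.53 in miR-27 Tg replicates 1 to 3, and 0.66, -0.49 and -0.25 in WT replicates 1 to 3. Over all genes tested it stayed between -0.08 and 0.11. The 11 genes with transcripts under 2000 bases had median deviations of -0.09, -0.04 and 0.12 in miR-27 Tg replicates 1 to 3, and of -0.13, 0.08 and 0.04 in WT replicates 1 to 3. The 16 genes over 4000 bases had 0.07, 0.00 and -0.03 in miR-27 Tg, and 0.08, -0.08 and -0.02 in WT. The genes of a library share its RNA and depth, so these are descriptions of 6 libraries. Between the groups the fold changes showed little of it, with a correlation of -0.13 with log2 length over the 46 genes.

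**Figure D4:**
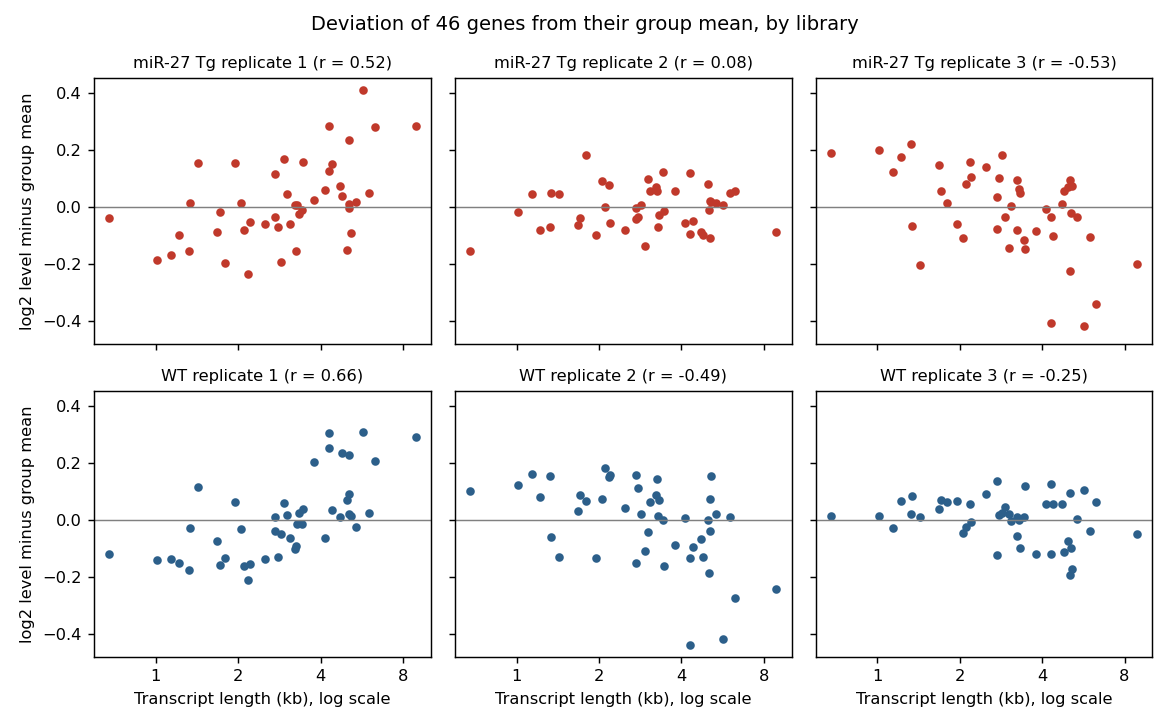
Deviation of each of the 46 genes from its group mean (log2 scale) against transcript length (log scale), 1 panel a library, miR-27 Tg in the upper row and WT in the lower row. The slope is upward in replicate 1 of both groups and downward in miR-27 Tg replicate 3 and WT replicate 2, with correlations from -0.53 to 0.66.

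Another 100 genes of the pathway, in 7 lists, were read from the same fit: 0 rose and 1 fell, against 1.03% of all genes. Groups did not overlap in 25 of the 100 (25%), against 18.5% of all genes. The gene that fell was Calm3, a calmodulin gene of the calcium arm (chr7:16915379-16924032), which had 261, 278 and 284 RPKM in miR-27 Tg, against 388.5, 459 and 481 RPKM in WT (-0.68, SE 0.10, adjusted p = 0.0292). The call did not hold with any library left out, where the adjusted p was 0.0539 to 0.11 and the log2 fold change -0.77 to -0.62. Calm2, which encodes the same protein, had 487, 522 and 536 RPKM in miR-27 Tg and 509, 565 and 474 RPKM in WT (0.00, adjusted p = 1.0).

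In the calcium arm, 16 of 17 genes did not pass, and the highest fold change belonged to Rcan3, a regulator of calcineurin. It had 214, 201 and 190.2 RPKM in miR-27 Tg, against 153, 149 and 158 RPKM in WT, without overlap (0.39, SE 0.09, adjusted p = 0.0909). Among 17 other negative regulators 0 passed. Rnf128, the ubiquitin ligase GRAIL known from T cell anergy, had 1.15, 0.53 and 1.38 RPKM in miR-27 Tg, against 6.25, 5.01 and 3.39 RPKM in WT (-1.54, SE 0.29, adjusted p = 0.0598). It had the largest fold change of the 100 genes and the lowest mean level among them. Nedd4l, a ubiquitin ligase of another family, lay at the other end with 26, 22.7 and 21.2 RPKM in miR-27 Tg and 19.9, 14.6 and 18.1 RPKM in WT (0.40, adjusted p = 0.351).

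The 15 genes that receptor signals induce had a median log2 fold change of -0.21, with 12 of 15 below 0 (11 of 15 under median-ratio scaling and 13 of 15 after quantile normalization) and 0 past the threshold. Nr4a2, an orphan nuclear receptor of that list, had 67.3, 54.6 and 42.6 RPKM in miR-27 Tg, against 141, 88.9 and 78.5 RPKM in WT (-0.87, SE 0.24, adjusted p = 0.163). Its relative Nr4a1, a widely used reporter of receptor signals, overlapped at 1833 ± 208 RPKM in miR-27 Tg and 1998 ± 476 RPKM in WT. Il2ra, the high affinity interleukin receptor chain, had the highest fold change of the list (0.10, adjusted p = 0.745).

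The 8 genes of the SLAM and DNAM list, which also holds Cd27 of the TNF receptor family, had a median of -0.17, and 0 passed. The fold change was below 0 in 7 of 8, against 52.9% of all genes. All miR-27 Tg libraries lay below all WT libraries in 4 of 8, against 11.6% of all genes. Slamf1 had 193, 203 and 259.8 RPKM in miR-27 Tg and 261, 284 and 276 RPKM in WT (-0.33, adjusted p = 0.29), and Ly9 was highest at 0.06. The 15 proximal adaptors and kinases had a median of -0.05, from Sh2d1a at -0.25 to Nck2 at 0.29. The 12 genes of the CD28 and PI3K arm had a median of 0.05 (-0.03 without WT replicate 2), from Pdpk1 at -0.16 to Foxo3 at 0.21. The 16 genes of the Ras and MAP kinase arm had a median of -0.01 (0.02 under median-ratio scaling), with Map2k2 highest at 0.12. None of the genes in these 4 lists passed.

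**Figure D5:**
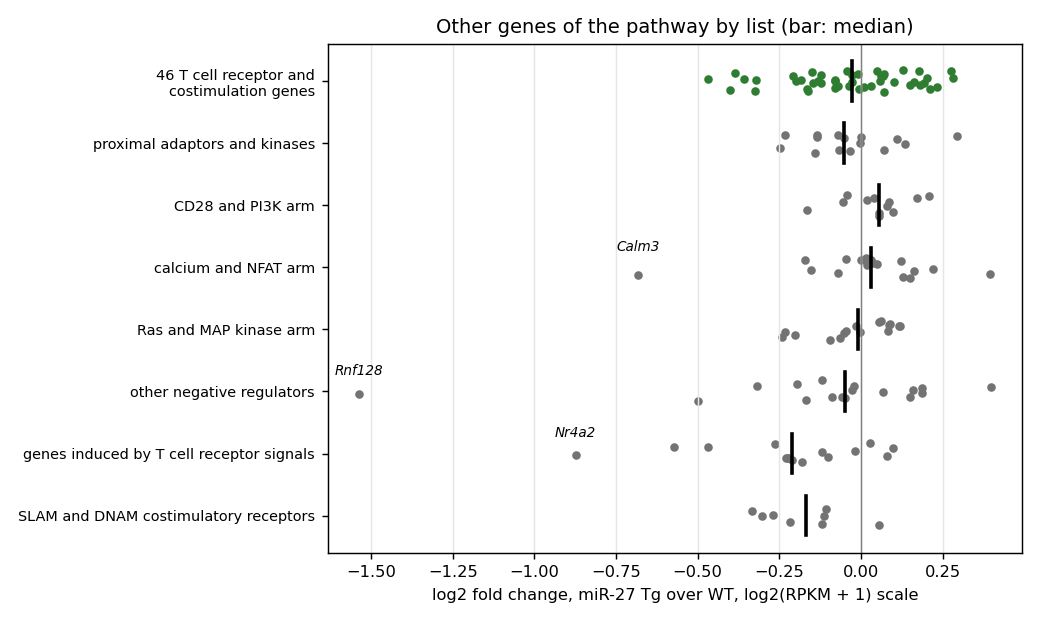
Log2 fold change (miR-27 Tg over WT, log2(RPKM + 1) scale) of the 46 genes and of 100 further pathway genes in 7 lists, 1 point a gene, with the median of each list as a bar. Medians lie between -0.21 for genes induced by receptor signals and 0.05 for the CD28 and PI3K arm, and Calm3 is the only gene shown that passed the threshold.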

How the data were processed

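RNA from 6 libraries of sorted Treg cells was compared, 3 miR-27 Tg and 3 WT. Per the submitters' processing notes, STAR 2.2.0c and HOMER were used with mm10 (GRCm38). Per the file headers, HOMER counted reads in exons of RefSeq transcripts on both strands, and the authors deposited RPKM scaled to 10000000 reads over 34711 transcripts. Overlapping genes cannot be told apart without strand: other genes share 24.6% of the exonic bases of Sla2, 11.8% of Plcg1, 8.8% of Ptpn6 and 7.7% of Lcp2. Depth was read from low values, all whole multiples of a read within 0.1. Each of the 46 genes had 595 or more reads in every library.

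For each symbol the transcript with the highest mean was kept (21 of the 46 genes had several), and the test took genes whose mean RPKM reached 1. RPKM values are not counts, so log2(RPKM + 1) was fitted with limma 3.58.1 (R 4.3.3, intensity trend, two-sided, Benjamini-Hochberg over 13621 genes, threshold 0.05) with no replicate block. The fold change understates that of low genes. The code was tested on simulated data.

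The members and all lists were chosen with earlier results of these data known, so lists are described by counts and medians, with no test. Values by library were given for the 14 genes with the largest fold changes, the 6 most abundant, and Cd3e, Cd4, Lck, Zap70, Lat, Cd28 and Icos; of the other lists, for called genes and the extreme in each direction, of which 1 is not reported here. Calm2, Nr4a1, Ctla4 and its neighbours, and the values of further members, were added to that. Seed matches were read from 3′ UTRs of GENCODE M21, and miR-27a-3p from RefSeq. Alternatives were 2 other pseudocounts, 2 other filters, 2 other scalings, the longest transcript, transcripts under 200 bases left out, no trend, array weights, a replicate block and each library left out.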

Additional observations from a re-analysis of the deposited data

How the results depend on the processing

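None of the 46 genes passed in any of the 17 alternatives. The lowest adjusted p was 0.0522, for Icos after quantile normalization (range over its alternatives 0.0522 to 0.231). The log2 fold change of Icos stayed between -0.52 and -0.39, that of Ptpn22 between -0.46 and -0.32, and that of Cd28 between -0.45 and -0.26. Wider ranges were found for Cblb (-0.50 to -0.19) and Nfatc1 (-0.54 to -0.12), both from leaving out a library. Over all genes, 15 higher and 32 lower passed with no filter, 81 and 144 with array weights, 91 and 185 with a replicate block, and 3 to 14 higher and 1 to 44 lower with a library left out, against 51 and 89. Deviations of same-numbered libraries correlated at 0.37, 0.10 and 0.04, so the numbers were not taken as pairs. The block gave 1 call among the genes induced by receptor signals (Nr4a2). The 1 call of the calcium arm (Calm3) was 0 with no filter, with no trend and with any library left out. Other negative regulators gave 1 call after quantile normalization (Lax1), without short transcripts or without the trend (Rnf128), and 2 with array weights.

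Median-ratio scaling moved the median of all genes from -0.01 to 0.02, that of the 46 genes to 0.006, of the proximal list to -0.019, of the Ras list to 0.024 and of other negative regulators to -0.015. With a library left out these ran from -0.032 to -0.006, from -0.078 to 0, from -0.018 to 0.017 and from -0.074 to -0.012. In the same fits the calcium list ran from -0.012 to 0.087, the induced list from -0.25 to -0.10, the CD28 and PI3K list from -0.027 to 0.097 and the SLAM and DNAM list from -0.23 to -0.089.

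Of the 46 genes, 30 kept their direction throughout and 16, with log2 fold changes of up to 0.13 in size, did not. Median-ratio scaling turned Nfatc3 (0.028), Cbl (0.005), Sla2 (0.006) and Cd6 (0.023), quantile normalization Dgka (-0.026), and array weights Nfatc3 (0.021) and Cd6 (0.01). With a library left out, the log2 fold change ran from -0.15 to 0.033 for Cd3d, -0.009 to 0.16 for Lck, -0.034 to 0.19 for Txk, -0.005 to 0.14 for Csk, -0.12 to 0.011 for Bcl10, -0.015 to 0.27 for Sos1, -0.017 to 0.10 for Dgka, -0.019 to 0.14 for Dgkz, -0.28 to 0.14 for Nfatc2, -0.031 to 0.046 for Nfatc3, -0.14 to 0.022 for Ppp3cb, -0.14 to 0.084 for Cbl, -0.10 to 0.019 for Sla2, -0.037 to 0.064 for Cd5, -0.06 to 0.062 for Cd6 and -0.011 to 0.14 for Cd2. The causes were not tested, nor was the limit set by depth compared with that set by 3 libraries a group.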
